A study of Mus musculus with 24 samples.

Results

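Genes outside leukocyte, interferon and antigen presentation function whose response to testosterone (T) in the lacrimal gland differed between NOD and MRL/lpr mice were examined. On each array platform all 12 arrays entered 1 limma fit with 4 group means, and the T response of MRL/lpr glands (T minus placebo) was subtracted from that of NOD glands on the log2 scale. This difference is called the interaction, and it is positive where the NOD response lay above the MRL/lpr response. A gene was called at an adjusted p under 0.05 (Benjamini-Hochberg, over all probes of the platform) and was kept when it was not on a list of immune genes. This gave 522 genes of 8959 tested on CodeLink bioarrays (CL) and 255 of 10406 tested on Affymetrix GeneChips (Affy). In all, 724 of 12557 genes were kept on at least 1 platform, and 53 of the 6808 genes tested on both were kept on both.

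RNA came from exorbital lacrimal glands of adult female mice that carried subcutaneous pellets with 10 mg of T or with vehicle alone (placebo). The groups were NOD T and NOD placebo (implanted at 21 weeks, 2 to 4 mice per pool) and MRL/lpr T and MRL/lpr placebo (implanted at 17 to 18 weeks, 6 mice per pool), with 3 pools per group. Every pool went onto both platforms, which gives 24 arrays and means that the platforms share their RNA. The sample labels give 21 days of treatment for NOD and 18 days for MRL/lpr mice, whereas the methods give 20 to 21 days, and strain cannot be told apart from age, pool size or, by the labels, length of treatment. NOD mice develop autoimmune diabetes with inflammation of lacrimal and salivary glands. MRL/lpr mice carry the lpr mutation of the death receptor Fas, which leads to lymphocyte accumulation and inflamed glands. The question was where the response of the gland to the hormone depended on strain.

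The lacrimal gland makes the watery part of the tear film. Acinar cells secrete proteins, ducts modify water and ions, and myoepithelial cells squeeze the acini. Androgen binds the androgen receptor, a transcription factor, in epithelial cells of the gland, and many secreted proteins of rodent exocrine glands (major urinary proteins, kallikreins, seminal vesicle proteins) are known androgen-regulated genes that occur in families of near-identical copies. A strain difference in a hormone response can take several forms: a response in 1 strain alone, responses of unequal size, or responses in opposite directions.

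The genes with the strongest interactions on both platforms included Svs2, Svs4, Calml4 and Moxd2, and their promoter windows are shown because each of these genes moved with T in at least 1 strain. The windows are from RefSeq on build GRCm38.p6 and span 250 bases before to 50 bases after the annotated start, 5′ to 3′ on the gene's strand. Capitals mark TATAAA or its reverse complement TTTATA (in Svs2 and Svs4) and TGTTCT, the reverse complement of AGAACA, a hexamer found in androgen response elements (in Moxd2).
Svs2, chr2:164238292-164238591, minus strand: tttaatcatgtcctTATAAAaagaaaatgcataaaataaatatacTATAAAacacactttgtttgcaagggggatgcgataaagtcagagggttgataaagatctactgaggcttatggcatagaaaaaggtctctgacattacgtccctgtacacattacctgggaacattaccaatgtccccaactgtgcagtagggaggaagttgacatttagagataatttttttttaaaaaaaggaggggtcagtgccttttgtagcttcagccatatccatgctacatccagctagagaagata
Svs4, chr2:164278258-164278557, minus strand: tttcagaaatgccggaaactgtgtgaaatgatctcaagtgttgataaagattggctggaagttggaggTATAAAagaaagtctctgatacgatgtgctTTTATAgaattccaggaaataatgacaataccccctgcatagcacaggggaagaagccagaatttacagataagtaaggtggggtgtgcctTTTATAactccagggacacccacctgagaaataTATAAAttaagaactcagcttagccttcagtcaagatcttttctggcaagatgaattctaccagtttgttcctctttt
Calml4, chr9:62857854-62858153, plus strand: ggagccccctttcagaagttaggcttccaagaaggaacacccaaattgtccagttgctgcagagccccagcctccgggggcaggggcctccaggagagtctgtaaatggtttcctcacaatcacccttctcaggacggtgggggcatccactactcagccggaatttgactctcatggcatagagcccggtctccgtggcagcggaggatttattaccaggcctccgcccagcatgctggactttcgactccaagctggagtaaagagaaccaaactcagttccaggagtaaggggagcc
Moxd2, chr6:40887445-40887744, minus strand: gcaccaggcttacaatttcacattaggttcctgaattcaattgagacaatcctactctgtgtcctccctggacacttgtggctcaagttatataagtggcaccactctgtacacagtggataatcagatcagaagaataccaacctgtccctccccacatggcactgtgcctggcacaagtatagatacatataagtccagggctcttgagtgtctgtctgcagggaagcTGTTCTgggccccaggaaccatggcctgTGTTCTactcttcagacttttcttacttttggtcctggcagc
TATAAA on either strand began at window positions 15 and 46 in Svs2 and at positions 69, 99, 190 and 223 in Svs4, and was not in the other windows. AGAACA on either strand began at positions 231 and 259 in Moxd2 alone among these windows. Of 32851 mouse promoter windows of this length, 13.6% held TATAAA and 19% held AGAACA on either strand. Of the 53 genes kept on both platforms 44 had a window, 12 with TATAAA and 7 with AGAACA. A gene was counted here when any of its windows held the letters. The shares above are of single windows, so that the counts cannot be set directly against them. A match describes letters in a window and no binding was measured.

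CL values are spot intensities divided by the array's median, and Affy values are probe set intensities scaled here to a trimmed mean of 500. Values below a floor (0.5 on CL, 70.5 on Affy) entered the fit at the floor. Replicate arrays correlated at 0.932 to 0.982 on CL and at 0.925 to 0.989 on Affy over all probes, and between 47.2% and 61.1% of CL spots per array were near background. On Affy the array of NOD T pool 1 stood apart from pools 2 and 3 (correlations of 0.925 and 0.930, against 0.989 between pools 2 and 3), and its scaling factor was 11.6, against 3.33 and 3.54. Among the named genes, leaving it out ended the Affy calls of Cyp2e1 and Phyh. Because glands are mixed tissue, fewer cells of a type and less RNA per cell cannot be told apart.

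On CL 8.51% of all genes tested had a called interaction, 4.53% positive and 3.97% negative. On Affy the shares were 4.59%, 3.61% and 0.98%. Without the immune list 189 positive and 333 negative genes remained on CL, and 155 positive and 100 negative genes on Affy. Among genes on the immune list 35.6% were positive on CL and 32.5% on Affy. Outside it 2.26% were positive and 3.99% negative on CL, and 1.59% positive and 1.03% negative on Affy. The list was changed after the values were seen, so that this contrast is partly set by that choice. With the list as first written, 219 positive and 337 negative genes lay outside it on CL, and 185 and 98 on Affy. The median interaction of all genes tested was -0.07 on CL and -0.03 on Affy. The genes nearest the threshold on CL were Fam50a inside it (interaction -0.94, adjusted p = 0.0499) and Pla2g4a outside it (1.34, adjusted p = 0.0504). On Affy they were Cyp2e1 inside (-1.98, adjusted p = 0.0499) and Nab1 outside (1.09, adjusted p = 0.0503).

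By the calls, the interaction mostly stood for a T effect that passed the threshold in a single strain. The T effect itself was called for 17.1% of all genes in NOD and 13.1% in MRL/lpr on CL, and for 10.4% in NOD and 7.33% in MRL/lpr on Affy. By direction, 8.58% were higher and 8.55% lower with T in NOD and 6.64% higher and 6.45% lower in MRL/lpr on CL, and 6.47% were higher and 3.96% lower in NOD and 3.52% higher and 3.82% lower in MRL/lpr on Affy. Of the 333 negative genes on CL the T effect was called in NOD alone for 148, in MRL/lpr alone for 108, in both strains with the same direction for 54, in both with opposite directions for 12 and in neither for 11. Of the 189 positive genes on CL these counts were 105, 50, 13, 12 and 9 in the same order. On Affy they were 35, 38, 13, 4 and 10 for the 100 negative genes and 73, 42, 5, 13 and 22 for the 155 positive genes. The median T effect of the positive genes was 1.10 in NOD and -0.52 in MRL/lpr on CL, and 0.98 in NOD and -0.81 in MRL/lpr on Affy. For the negative genes it was -0.76 in NOD and 0.57 in MRL/lpr on CL, and -0.68 in NOD and 0.78 in MRL/lpr on Affy. These values describe genes that were chosen by the interaction and are no test of it.

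**Figure D1:**
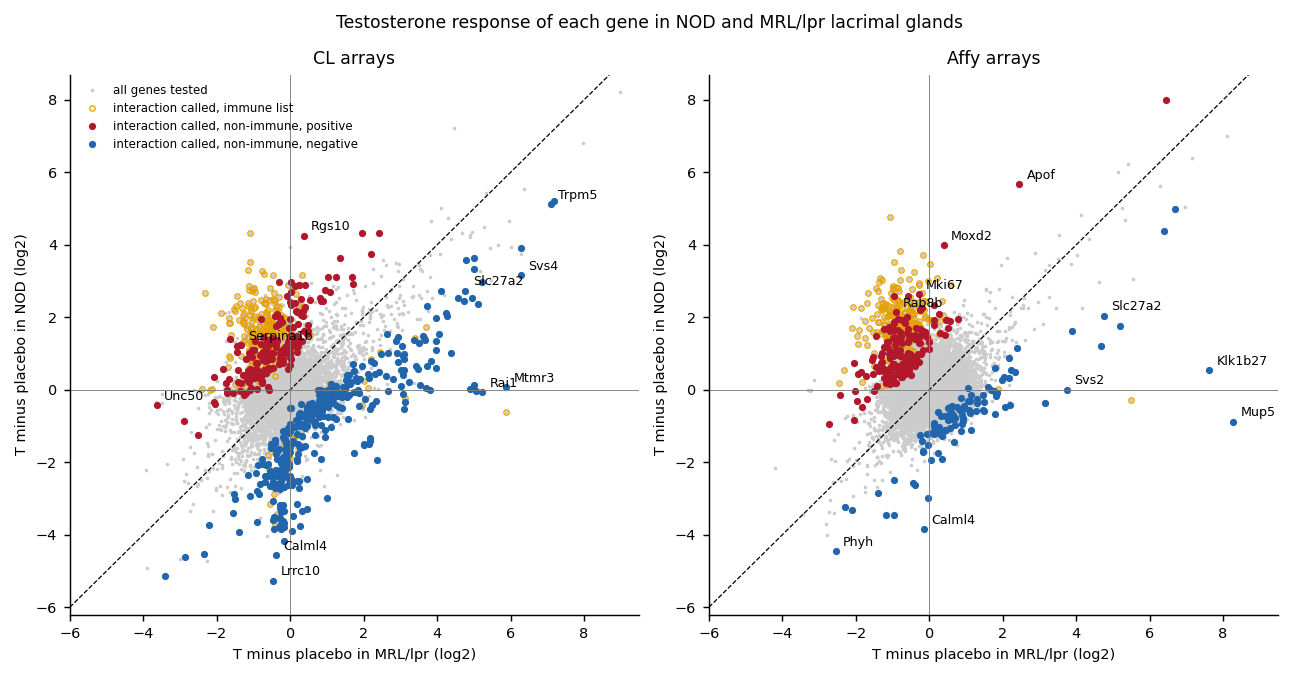
T response of every gene tested in MRL/lpr (horizontal axis) and NOD (vertical axis) lacrimal glands, as log2 of T over placebo, on CL (left) and Affy (right). Grey points are all genes tested, open orange circles are called genes on the immune list, filled red and blue points are the called non-immune genes with positive (189 on CL, 155 on Affy) and negative (333 and 100) interactions, and the dashed line marks equal responses. Blue points lie below the line, in an arm along the MRL/lpr axis and an arm down the NOD axis.

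Secreted proteins of the seminal vesicle type were among the strongest negative interactions. Svs2 and Svs4 encode abundant proteins of mouse seminal fluid that form the copulatory plug. Svs2 on CL read 0.481, 0.434 and 0.651 in NOD T pools and 0.151, 0.276 and 0.412 in NOD placebo pools, against 4.49, 8.25 and 5.24 in MRL/lpr T pools and 0.160, 0.113 and 0.206 in MRL/lpr placebo pools. Only MRL/lpr T pools were above background, and Svs2 was at least 5.89-fold higher with T in MRL/lpr. On Affy Svs2 read 6.95, 27 and 45.7 in NOD T and 9.98, 3.87 and 3.03 in NOD placebo pools, all under the floor, and 1425, 1149 and 515 in MRL/lpr T against 2.94, 1.55 and 4.42 in MRL/lpr placebo pools (at least 13.4-fold higher with T). The interaction of Svs2 was -3.41 (standard error 0.31, adjusted p = 0.00014) on CL and -3.74 (0.52, 0.0003) on Affy, both from limma.

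Svs4 rose with T in both strains, with a smaller rise in NOD. It read 3.83, 9.42 and 9.17 in NOD T and 0.977, 0.352 and 0.933 in NOD placebo pools, against 56.6, 78.2 and 54.5 in MRL/lpr T and 0.723, 0.796 and 0.887 in MRL/lpr placebo pools on CL. T pools lay above placebo pools in both strains, at least 5.0-fold in NOD and at least 63.3-fold in MRL/lpr, and on Affy at least 3.42-fold in NOD and at least 36.6-fold in MRL/lpr. The Affy values were 206, 409 and 166 in NOD T, under 7 in each NOD placebo pool, 2293, 2933 and 2558 in MRL/lpr T and at most 15.5 in MRL/lpr placebo pools. The interaction was -3.12 (standard error 0.51, adjusted p = 0.0029) on CL and -3.42 (0.49, 0.00044) on Affy. Probes of Svs genes may share signal within the family.

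Mup5 and Klk1b27 had the largest interactions on Affy. Mup5 is a major urinary protein, a lipocalin that binds small pheromones. It read 115380, 131360 and 170440 in MRL/lpr T pools and 1377, 239 and 262 in MRL/lpr placebo pools, and 2408, 580.4 and 3248 in NOD T pools and 1435, 1559 and 12506 in NOD placebo pools. MRL/lpr T pools were far above all others, while NOD T and NOD placebo pools overlapped (interaction -9.15, standard error 1.07, adjusted p = 7.3e-05). Klk1b27 is a kallikrein-type serine protease made under androgen control in mouse salivary gland. On Affy it read 11.6, 133 and 114 in NOD T and 4.44, 2.90 and 6.06 in NOD placebo pools, and 12219, 12854 and 17164 in MRL/lpr T and 4.41, 7.77 and 3.32 in MRL/lpr placebo pools (interaction -7.09, standard error 0.43, adjusted p = 6.8e-08). It was at least 197-fold higher with T in MRL/lpr and at least 1.45-fold higher in NOD. On CL Klk1b27 rose in both strains (at least 5.07-fold in NOD, and by 6.30 on the log2 scale in MRL/lpr), with an interaction of -2.54 that was not called (adjusted p = 0.18). Both genes belong to families of near-identical copies, so that a probe may read several of them. Of the salivary gland markers 1 of 4 tested on CL was called (Lpo, negative) and 0 of 7 on Affy, of 11 listed. On Affy they summed to 67835 to 176784 in NOD T, 74646 to 148745 in NOD placebo, 208536 to 282010 in MRL/lpr T and 112094 to 229014 in MRL/lpr placebo pools, and their part in these results was not tested.

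Of the list of seminal vesicle, casein and salivary type proteins, 3 of 16 tested on CL (Csn1s2a, Svs2 and Svs4) and 3 of 17 on Affy (Prol1, Svs2 and Svs4) had negative interactions and none had a positive one. Over all genes, 3.97% were negative on CL and 0.98% on Affy. Csn1s2a, a milk casein, read 13.2, 10.4 and 10.5 in NOD T and 27.5, 23.0 and 129 in NOD placebo pools on CL, and 271, 279.8 and 338 in MRL/lpr T and 39.6, 60.2 and 79.0 in MRL/lpr placebo pools. It fell with T in NOD and rose with T in MRL/lpr (interaction -4.30, standard error 0.73, adjusted p = 0.0036). Smr2, a salivary-type peptide precursor that is not on this list, was positive on both platforms. On Affy Csn1s2a had an interaction of 0.05 with values at or under 182 in all pools. Of the secretory kallikreins 0 of 8 on CL and 1 of 10 on Affy (Klk1b27) were called, although T raised 5 of the 8 in NOD and 5 in MRL/lpr on CL, and 6 of the 10 in NOD and 8 in MRL/lpr on Affy.

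**Figure D2:**
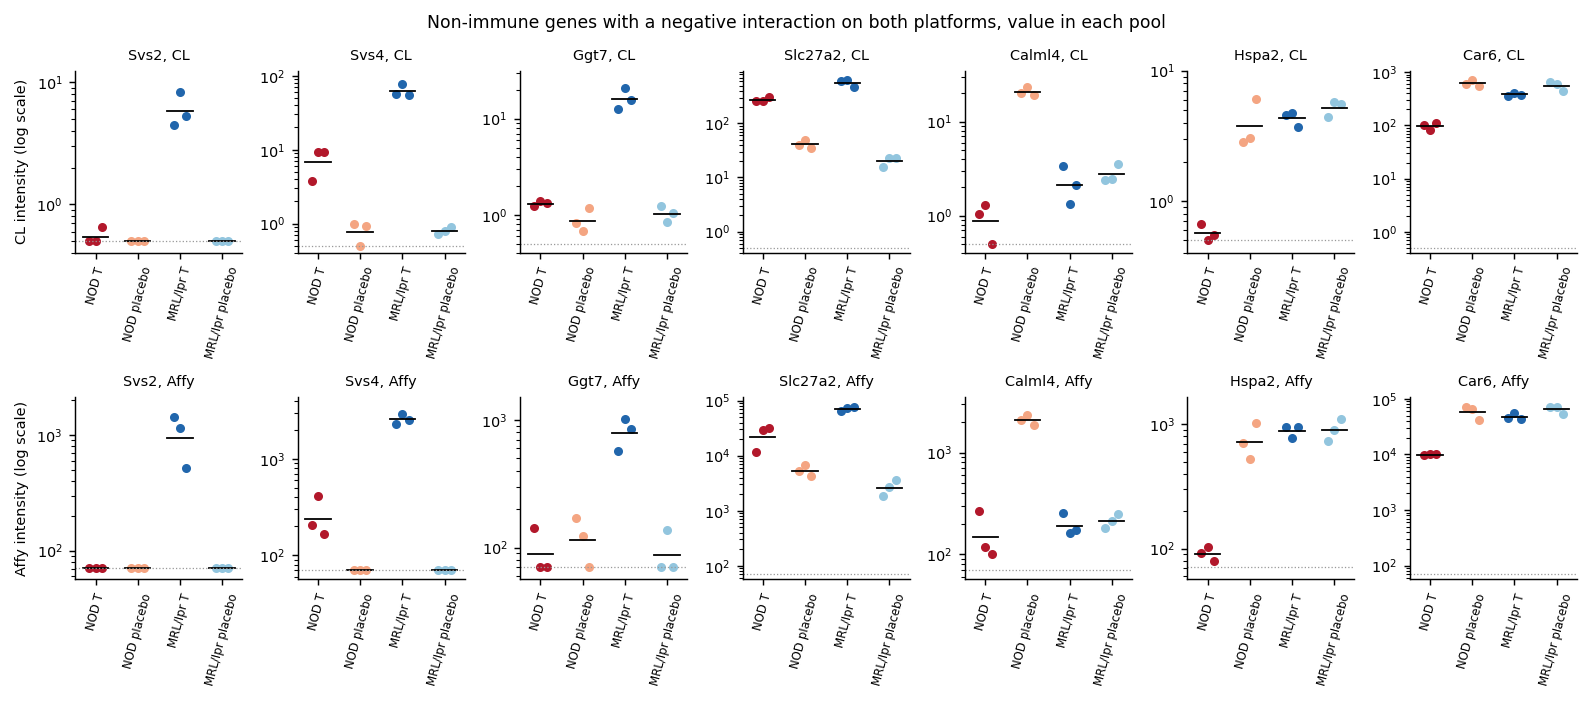
Intensity in each pool (log scale, own axis for each panel) of 7 genes with negative interactions on both platforms, on CL (top) and Affy (bottom). Points are pools, bars are means of the log values over 3 pools, the dotted line is the floor, and values under it are drawn on it. Svs2, Svs4, Ggt7 and Slc27a2 stand highest in MRL/lpr T pools, and Calml4, Hspa2 and Car6 stand lower in NOD T than in NOD placebo pools.

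Further genes rose more in MRL/lpr than in NOD glands on both platforms. Ggt7 is a member of the gamma-glutamyltransferase family. On CL it read 1.24, 1.38 and 1.32 in NOD T and 0.821, 0.682 and 1.17 in NOD placebo pools, and 12.6, 21.0 and 15.7 in MRL/lpr T and 1.23, 0.840 and 1.04 in MRL/lpr placebo pools. Only MRL/lpr T pools stood out, and the interaction was -3.38 (standard error 0.37, adjusted p = 0.00034) on CL and -3.53 (0.62, 0.0023) on Affy. Kcnip3 encodes a calcium sensor that modulates potassium channels. It read 2.30, 1.66 and 2.30 in NOD T, 2.85, 2.49 and 1.60 in NOD placebo, 7.31, 6.69 and 5.91 in MRL/lpr T and 0.762, 0.742 and 0.843 in MRL/lpr placebo pools on CL. It was at least 6.72-fold higher with T in MRL/lpr and its NOD pools overlapped. The CL interaction was -3.21 (adjusted p = 0.00034) and the Affy interaction -2.47 (adjusted p = 0.0052).

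Slc27a2, a very long-chain fatty acid transporter and acyl-CoA synthetase, rose with T in NOD and in MRL/lpr. The CL values were 261, 258 and 302 in NOD T and 40.1, 49.0 and 35.5 in NOD placebo pools, and 594, 629 and 460.1 in MRL/lpr T and 15.7, 23.1 and 23.1 in MRL/lpr placebo pools. NOD pools had the higher level under placebo and MRL/lpr pools the higher level with T. The log2 T effect on CL was 2.73 in NOD and 4.77 in MRL/lpr (interaction -2.04, adjusted p = 0.0013), and on Affy it was 2.04 in NOD and 4.77 in MRL/lpr (interaction -2.72, adjusted p = 0.0021). The Affy values in NOD T were 11591 in pool 1, which was below the 29778 and 31624 of the other pools, and without pool 1 the Affy interaction was -2.26 and still called. With quantile normalization it was -1.68 and did not pass. Sel1l3 (a membrane protein of little known function) followed the same order, with a log2 T effect of 0.74 in NOD and 2.28 in MRL/lpr on CL and of 0.48 in NOD and 2.34 in MRL/lpr on Affy.

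A group of genes fell with T in NOD glands and showed little change in MRL/lpr glands. Calml4 encodes a calmodulin-like protein known from the brush border of gut epithelium. On CL it read 1.04, 1.29 and 0.473 in NOD T and 20.0, 23.3 and 19.3 in NOD placebo pools, against 3.36, 1.32 and 2.10 in MRL/lpr T and 2.41, 2.48 and 3.55 in MRL/lpr placebo pools. The NOD placebo pools alone were high, and Calml4 was at least 18.0-fold lower with T in NOD. On Affy it read 265, 118 and 101 in NOD T, 2108, 2360 and 1867 in NOD placebo, 254, 161 and 172 in MRL/lpr T and 179, 214 and 248 in MRL/lpr placebo pools. The interaction was -4.17 (standard error 0.55, adjusted p = 0.00087) on CL and -3.69 (0.50, 0.00024) on Affy. Under placebo Calml4 was higher in NOD than in MRL/lpr by 2.91 on CL and 3.31 on Affy (log2), and with T it was lower in NOD by 1.26 on CL and 0.38 on Affy, neither difference called.

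Hspa2, a heat shock protein of the HSP70 family that is best known from spermatogenesis, also fell in NOD glands, and its placebo pools did not differ beyond their spread between the strains. On Affy it read 92.6, 102 and 79.3 in NOD T, 703, 522 and 1019 in NOD placebo, 944, 783 and 946 in MRL/lpr T and 733, 898 and 1107 in MRL/lpr placebo pools. NOD T pools were below all others, with an interaction of -2.97 (standard error 0.39, adjusted p = 0.0002), and of -2.46 (0.40, 0.0027) on CL, where Hspa2 was at least 3.75-fold lower with T in NOD.

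Car6, the carbonic anhydrase secreted in tears and saliva, and Dmbt1, a secreted scavenger receptor glycoprotein of mucosal fluids, also fell in NOD glands. Car6 on Affy read 9611, 10216 and 9993 in NOD T and 71704, 66381 and 42315 in NOD placebo pools, and 45245, 54915 and 43190 in MRL/lpr T and 70223, 72063 and 53248 in MRL/lpr placebo pools. The NOD T pools were far below the NOD placebo pools, whereas the MRL/lpr T and placebo pools overlapped on Affy (interaction -2.12, standard error 0.37, adjusted p = 0.0025, and -2.10, 0.28, 0.0009 on CL). On CL the MRL/lpr T pools (363, 407 and 376) lay below the MRL/lpr placebo pools (643, 604 and 442.5). That T effect in MRL/lpr was -0.54 on the log2 scale and was not called. Dmbt1 read 1384, 1553 and 1303 in NOD T and 17332, 19944 and 10475 in NOD placebo pools on Affy, and 15127, 15196 and 17925 in MRL/lpr T and 33423, 33787 and 26495 in MRL/lpr placebo pools. It fell in both strains, by 3.45 in NOD and by 0.95 in MRL/lpr on the log2 scale (interaction -2.49, adjusted p = 0.00018, and -1.83, adjusted p = 0.020 on CL).

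Car6 and Dmbt1 are on the list of lacrimal acinar and duct markers, of which 2 of 15 on CL and 4 of 19 on Affy (also Elf5, an epithelial transcription factor, and Prol1, a secreted tear and saliva protein) had negative interactions and none a positive one, beside 3.97% of all genes on CL and 0.98% on Affy. The median interaction of the whole list was 0.59 on CL and -0.69 on Affy, so that the platforms differ in its sign. The summed level of this list on Affy was 143929 to 200648 in NOD T, 235470 to 346963 in NOD placebo, 348847 to 412222 in MRL/lpr T and 355122 to 409927 in MRL/lpr placebo pools. NOD T pools were below NOD placebo pools on Affy, whereas on CL the ranges overlapped (1806 to 2386 in NOD T and 1366 to 3469 in NOD placebo pools). How far a lower share of epithelium goes with the falls in NOD was not tested.

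Among enzymes of lipid and drug metabolism calls went both ways. Over all genes, 4.53% were positive and 3.97% negative on CL, and 3.61% were positive and 0.98% negative on Affy. In the fatty acid and triglyceride synthesis list 2 of 22 on CL were positive (Fads1 and Plin2) and 1 negative (Mogat1), and of 30 on Affy 1 was positive (Acsl5, an acyl-CoA synthetase, interaction 1.69, adjusted p = 0.0014) and 1 negative (Dgat2). In the conjugation list 3 of 40 on CL were negative (Akr1b8, Gstm1 and Sult1e1) and 1 positive (Mgst2), and 1 of 41 on Affy was negative (Gstm1). Gstm1, a glutathione transferase, read 369, 678 and 706 in NOD T, 3151, 3205 and 3046 in NOD placebo, 1550, 1623 and 1716 in MRL/lpr T and 3445, 3337 and 2829 in MRL/lpr placebo pools on Affy. Placebo pools of the strains overlapped, T pools were lower in both strains, and the fall was larger in NOD (interaction -1.51, adjusted p = 0.0085, and -1.41, adjusted p = 0.0061 on CL). Fbp1, a key enzyme of gluconeogenesis, fell in NOD and rose in MRL/lpr on both platforms. It read 4.54, 5.77 and 7.07 in NOD T, 15.1, 13.9 and 13.1 in NOD placebo, 2.98, 2.76 and 2.36 in MRL/lpr T and 1.70, 1.34 and 1.16 in MRL/lpr placebo pools on CL (interaction -2.25, adjusted p = 0.0011, and -2.26, adjusted p = 0.0088 on Affy).

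Of 26 cytochrome P450 and oxidoreductase genes tested on Affy, 3 were negative (Cyp2b10, Cyp2e1 and Fmo5) and 0 positive, and of 26 on CL 1 was negative (Cyp2e1) and 1 positive (Cyp4v3). Cyp2b10, a drug-inducible P450, read 5666, 6921 and 7825 in NOD T and 4419, 6016 and 5648 in NOD placebo pools, and 9670, 10687 and 8353 in MRL/lpr T and 2058, 2537 and 2333 in MRL/lpr placebo pools (interaction -1.71, standard error 0.27, adjusted p = 0.0011). NOD pools overlapped and MRL/lpr pools did not. Dgat2, which makes triglyceride, had a log2 T effect of 0.56 (not called) in NOD and 2.23 in MRL/lpr on Affy (interaction -1.67, adjusted p = 0.00063), while on CL its interaction was -0.33 (adjusted p = 0.75). Ddc, dopa decarboxylase, was near background in both placebo groups. It was at least 31.8-fold higher with T in NOD and at least 104-fold in MRL/lpr on Affy (interaction -1.71, adjusted p = 0.019), and at least 3.48-fold in NOD and at least 18.3-fold in MRL/lpr on CL (interaction -1.90, adjusted p = 0.053). Phyh, phytanoyl-CoA hydroxylase of peroxisomes, fell by 4.45 in NOD and by 2.55 in MRL/lpr on Affy (interaction -1.90, adjusted p = 0.046), a call that was lost when any 1 of 10 pools was left out, all but NOD T pool 2 and NOD placebo pool 3. Without NOD T pool 1 the interaction was -1.60.

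The few calls among genes of the endoplasmic reticulum and the respiratory chain were negative, at a share on CL near that of all genes. Creld2, a chaperone-associated protein induced by unfolded protein stress, read 69.3, 58.2 and 75.4 in NOD T, 98.8, 114 and 131 in NOD placebo, 109.6, 90.3 and 88.4 in MRL/lpr T and 46.5, 66.9 and 54.0 in MRL/lpr placebo pools on CL. It fell in NOD and rose in MRL/lpr on CL, with a CL interaction of -1.55 (adjusted p = 0.0043) and an Affy interaction of -1.48 (adjusted p = 0.012). On Affy NOD T pool 1 read 6785 beside 3502 and 4699, and without it the interaction was -1.73. Hyou1, a chaperone of the same compartment, had an interaction of -1.26 (adjusted p = 0.0040) on Affy. In the endoplasmic reticulum list 2 of 49 on CL (4.08%) and 3 of 58 on Affy (5.17%) were negative. In the respiratory chain list 3 of 60 on CL (5%) and 2 of 70 on Affy (2.86%) were negative. Over all genes the negative share was 3.97% on CL and 0.98% on Affy, so that the CL counts lie near it. The median interaction of the respiratory chain list was -0.39 on CL and -0.41 on Affy, and that of the cytosolic ribosomal proteins -0.36 on CL and -0.69 on Affy, with 1 of 52 called on CL (Rpl26) and 0 of 41 on Affy.

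**Figure D3:**
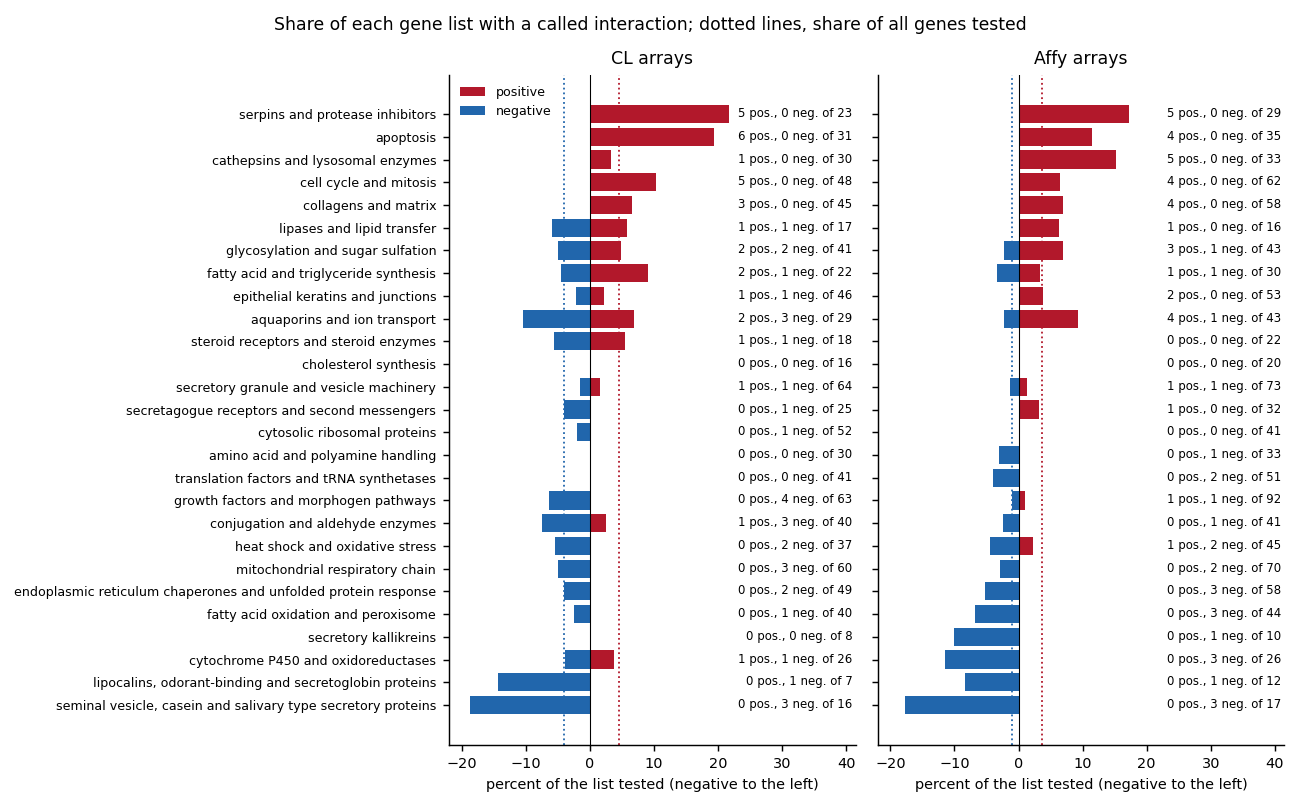
Percent of the tested genes of each function list with a called interaction on CL (left) and Affy (right), positive to the right in red and negative to the left in blue. Numbers give positive and negative calls of the genes tested, and dotted lines mark the share of all genes tested (4.53% and 3.97% on CL, 3.61% and 0.98% on Affy). The lists were chosen with earlier results of these data known, and their counts include genes that are also on the immune list.

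Positive interactions outside the immune list stood for genes that rose with T in NOD, fell with T in MRL/lpr, or both. Moxd2 encodes a monooxygenase related to dopamine beta-hydroxylase. It read 7.69, 7.80 and 10.6 in NOD T and 1.33, 1.48 and 2.10 in NOD placebo pools, and 2.05, 2.03 and 1.59 in MRL/lpr T and 1.49, 2.17 and 2.09 in MRL/lpr placebo pools on CL. On Affy it read 848, 988 and 1696 in NOD T pools and at most 24.2 in NOD placebo pools (at least 15.9-fold higher with T), against 93.1, 107 and 81.3 in MRL/lpr T and 13.2, 68.3 and 64.2 in MRL/lpr placebo pools. NOD T pools alone were high on both platforms (interaction 2.43, standard error 0.35, adjusted p = 0.0013 on CL, and 3.59, 0.48, 0.00023 on Affy).

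Apof, a plasma apolipoprotein that regulates cholesteryl ester transfer, and Smr2, a salivary-type secreted peptide precursor, rose more in NOD. Apof on Affy read 2539, 4514 and 4051 in NOD T and 55.5, 6.77 and 9.70 in NOD placebo pools (at least 51.0-fold higher with T), and 365, 624 and 698 in MRL/lpr T and 95.5, 144 and 58.6 in MRL/lpr placebo pools. The interaction was 3.22 (standard error 0.48, adjusted p = 0.00066) on Affy and 1.21 (0.32, 0.040) on CL, where leaving out any 1 of 10 pools (all but NOD T pool 1 and MRL/lpr placebo pool 1) ended the call. Smr2 on Affy read 15261, 20497 and 18466 in NOD T and 32.2, 53.2 and 64.3 in NOD placebo pools, and 6865, 6628 and 8581 in MRL/lpr T and 99.9, 17.1 and 85.2 in MRL/lpr placebo pools. It rose in both strains on Affy and in NOD alone on CL, with interactions of 1.55 (adjusted p = 0.0040) on Affy and 2.28 (adjusted p = 0.014) on CL.

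**Figure D4:**
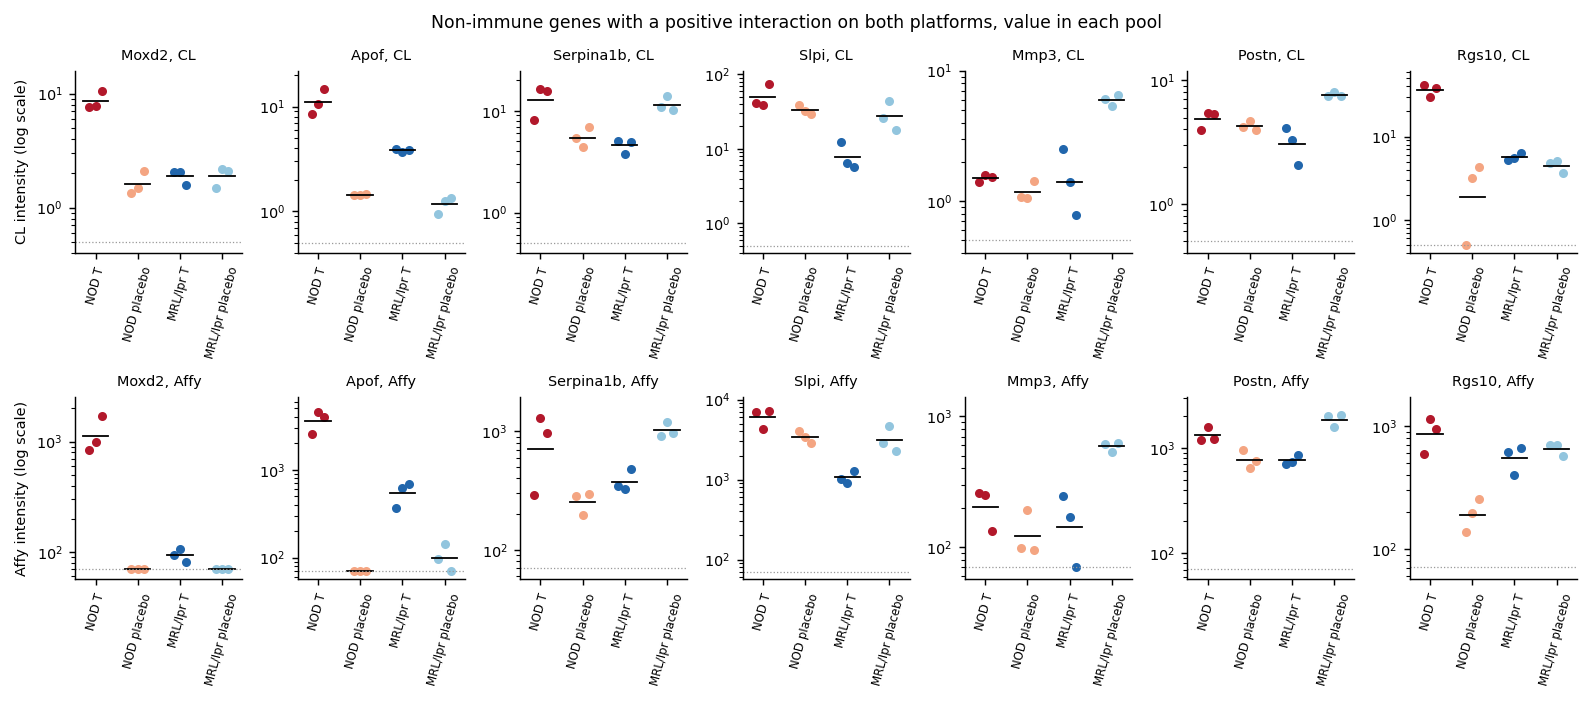
Intensity in each pool (log scale, own axis for each panel) of 7 genes with positive interactions on both platforms, on CL (top) and Affy (bottom). Points are pools, bars are means of the log values over 3 pools, the dotted line is the floor, and values under it are drawn on it. Moxd2 and Apof stand highest in NOD T pools, and Slpi, Mmp3 and Postn are lower in MRL/lpr T than in MRL/lpr placebo pools.

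Several protease inhibitors and matrix genes fell with T in MRL/lpr glands. Slpi, the secretory leukocyte protease inhibitor made by glandular epithelium, read 7012, 4266 and 7204 in NOD T, 4001, 3369 and 2842 in NOD placebo, 1027, 910.4 and 1289 in MRL/lpr T and 2855, 4679 and 2249 in MRL/lpr placebo pools on Affy. The T effect was called in MRL/lpr alone, and the interaction was 2.38 (standard error 0.37, adjusted p = 0.00096) on Affy and 2.40 (0.53, 0.017) on CL. Serpina1b, an alpha-1-antitrypsin copy, read 8.07, 16.5 and 15.5 in NOD T, 5.35, 4.38 and 6.89 in NOD placebo, 5.10, 3.73 and 4.97 in MRL/lpr T and 10.8, 14 and 10.1 in MRL/lpr placebo pools on CL. It rose in NOD and fell in MRL/lpr (CL interaction 2.56, adjusted p = 0.0025, and Affy interaction 2.92, adjusted p = 0.0061, where NOD T pool 1 read 291 beside 1297 and 962). Probes of Serpina1b and Serpina1c may read each other's transcripts. Of the serpin and protease inhibitor list 5 of 23 on CL and 5 of 29 on Affy were positive and none negative, Cst3, Serpina1b and Slpi on both. These are 21.7% and 17.2%, beside 4.53% of all genes positive on CL and 3.61% on Affy.

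Mmp3, stromelysin, a protease that degrades matrix, read 1.39, 1.60 and 1.53 in NOD T, 1.07, 1.05 and 1.44 in NOD placebo, 2.52, 1.41 and 0.786 in MRL/lpr T and 6.09, 5.33 and 6.46 in MRL/lpr placebo pools on CL. The MRL/lpr placebo pools alone were high (CL interaction 2.43, adjusted p = 0.0095, and Affy interaction 2.80, adjusted p = 0.018, a call that ended when NOD placebo pool 1, MRL/lpr T pool 2 or 3, or any MRL/lpr placebo pool was left out). Postn, periostin, a matrix protein of fibroblasts, fell with T in MRL/lpr by 1.34 on CL and by 1.29 on Affy, with interactions of 1.52 (adjusted p = 0.019) and 2.06 (adjusted p = 0.00041). In NOD the T effect of Postn was 0.77 on Affy, a called rise, and 0.19 on CL, not called. Gdf5, a bone morphogenetic protein family ligand, read 416, 505 and 602 in NOD T, 942, 1102 and 858 in NOD placebo, 12.6, 23.2 and 54.2 in MRL/lpr T and 491, 523 and 393 in MRL/lpr placebo pools on Affy. It fell in both strains there, by 0.94 in NOD and by 2.72 in MRL/lpr (interaction 1.78, adjusted p = 0.011, and 1.74, adjusted p = 0.010 on CL). Of the collagen and matrix list 3 of 45 on CL and 4 of 58 on Affy were positive and none negative, with Mmp3 and Postn on both. These are 6.67% and 6.90%, beside 4.53% of all genes positive on CL and 3.61% on Affy. The 12 fibroblast and myoepithelial markers summed on Affy to 13075 to 16625 in NOD T, 15044 to 17697 in NOD placebo, 19074 to 23053 in MRL/lpr T and 28473 to 32480 in MRL/lpr placebo pools, and on CL to 142 to 185 in NOD T, 131 to 148 in NOD placebo, 205 to 212 in MRL/lpr T and 221 to 284 in MRL/lpr placebo pools. MRL/lpr T pools lay below MRL/lpr placebo pools on both platforms, and 1 marker was positive on Affy (Lum) and 1 negative on CL (Krt5). The part of these cells in the falls in MRL/lpr was not tested.

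Some genes of cell division rose with T in NOD glands. Mki67, the marker of proliferating cells, read 782, 1319 and 1094 in NOD T, 183, 205 and 124 in NOD placebo, 434, 353 and 321 in MRL/lpr T and 611, 452 and 319.6 in MRL/lpr placebo pools on Affy (interaction 2.92, standard error 0.44, adjusted p = 0.00065). Of the cell cycle list 5 of 48 on CL (Ccnd2, Mcm6, Nusap1, Top2a and Ube2c) and 4 of 62 on Affy (Ccna2, Ccnd2, Mcm3 and Mki67) were positive and none negative. These are 10.4% and 6.45%, beside 4.53% of all genes positive on CL and 3.61% on Affy. The median interaction of the list was 0.71 on CL and 0.63 on Affy. T raised 14 of the 48 in NOD and 4 in MRL/lpr on CL, and 12 of the 62 in NOD and 2 in MRL/lpr on Affy. Over all genes, T raised 8.58% in NOD and 6.64% in MRL/lpr on CL, and 6.47% and 3.52% on Affy. Apoptosis genes had 6 positive calls of 31 on CL and 4 of 35 on Affy, beside 4.53% and 3.61% of all genes. Some of these (Fas, Casp1 and Birc3) also act in immune cells. Fas carries the lpr mutation in MRL/lpr mice. On CL it averaged 1.37 in NOD T, 0.593 in NOD placebo, 0.331 in MRL/lpr T and 0.287 in MRL/lpr placebo pools. Both MRL/lpr means were under the floor, and the part of the mutation in its call was not tested.

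Other positive genes are used by leukocytes as well as by other cells. Rgs10, a regulator of G-protein signalling, had the largest positive interaction on CL. It read 41.2, 29.6 and 38.3 in NOD T, 0.157, 3.16 and 4.32 in NOD placebo, 5.24, 5.58 and 6.41 in MRL/lpr T and 4.76, 5.03 and 3.64 in MRL/lpr placebo pools (interaction 3.88, adjusted p = 0.016, and 2.45, adjusted p = 0.0026 on Affy). Vim, vimentin, the intermediate filament of mesenchymal cells and leukocytes, read 2251, 3771 and 3245 in NOD T, 1289, 1570 and 1401 in NOD placebo, 2052, 2476 and 1987 in MRL/lpr T and 3548, 3865 and 3835 in MRL/lpr placebo pools on Affy (interaction 1.89, adjusted p = 0.00054, and 1.99, adjusted p = 0.0077 on CL). NOD T pools were above NOD placebo pools and MRL/lpr T pools below MRL/lpr placebo pools, and the fall in MRL/lpr was called on Affy alone. Rab8b (a small GTPase of vesicle transport, 3.05), Fscn1 (fascin, an actin bundler, 3.55) on Affy, and Pla2g7 (a plasma phospholipase, 2.48 on CL and 2.69 on Affy) and Fam111a (a nuclear protease, 2.64 on CL and 2.91 on Affy) on both platforms had interactions of the same sign.

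Leukocyte markers moved with these genes. Of the 38 leukocyte markers 19 of 30 tested on CL and 26 of 36 on Affy had positive interactions and none a negative one. Their summed level on CL was 157 to 234 in NOD T, 64.7 to 83.4 in NOD placebo, 108 to 144 in MRL/lpr T and 156 to 211 in MRL/lpr placebo pools. On Affy it was 28112 to 57625 in NOD T, 13549 to 15032 in NOD placebo, 22171 to 29407 in MRL/lpr T and 37040 to 43914 in MRL/lpr placebo pools. On both platforms NOD T lay above NOD placebo and MRL/lpr T below MRL/lpr placebo pools, the order seen for Vim, and the part of leukocyte number in the positive interactions outside the immune list was not tested. Itgam was the only marker of this list that was near background in all 4 groups on CL, and none was on Affy.

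The platforms were compared gene by gene. They measured the same pools, so that this is a technical repeat. Of the 522 genes kept on CL 367 were tested on Affy, where 53 (14.4%) were called the same way, 258 (70.3%) had the same sign and 0 were called the other way. Of the 255 genes kept on Affy 183 were tested on CL, where the same 53 (29.0%) were called, 160 (87.4%) had the same sign and 0 were called the other way. By direction, 30 of the 145 positive genes of CL (20.7%) and 23 of the 222 negative genes (10.4%) were called on Affy. Values near background limit this comparison. On CL 100 of the 189 positive and 109 of the 333 negative genes had at least 1 group near background by the spot flags of the array software. On Affy 11 of 155 and 14 of 100 had at least 1 group under the floor. Background was thus marked in different ways, so that these counts cannot be set against each other. Its part in the differences between the platforms was not tested.

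**Figure D5:**
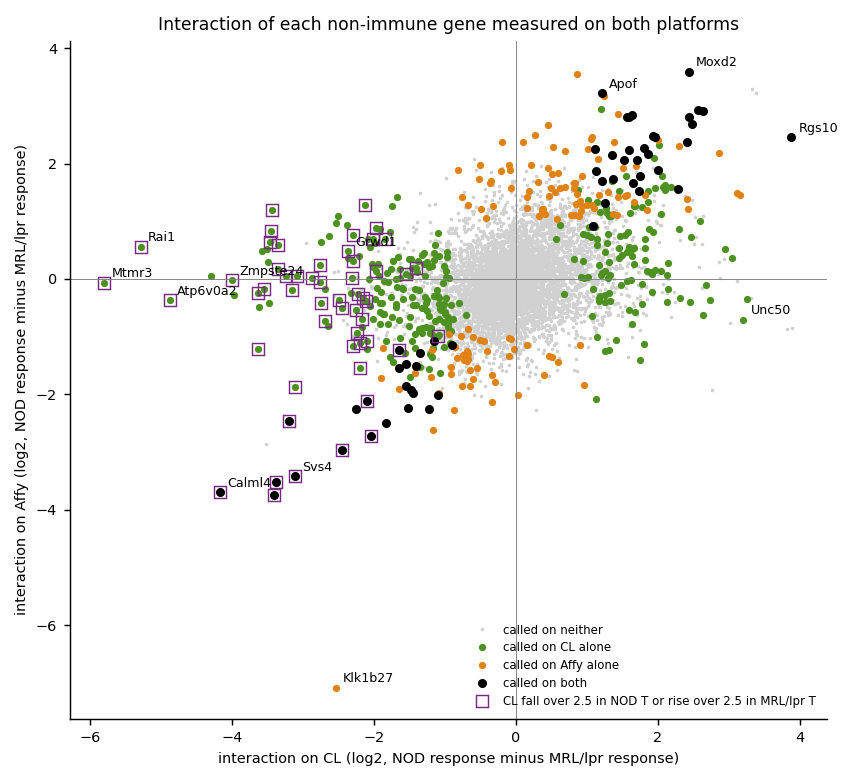
Interaction on CL (horizontal axis) and Affy (vertical axis), in log2 units, of each non-immune gene tested on both platforms. Colours give the platform on which the gene was called, and purple squares mark negative CL genes that fell by over 2.5 in NOD T glands or rose by over 2.5 in MRL/lpr T glands on CL. The 53 genes called on both lie in the upper right and lower left, and many squares lie near 0 on Affy.

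Several of the largest interactions on CL had no counterpart on Affy. Mtmr3, a phosphoinositide phosphatase, read 6.89, 6.38 and 8.64 in NOD T, 5.86, 7.33 and 7.50 in NOD placebo, 145, 179.5 and 265 in MRL/lpr T and 2.06, 3.18 and 5.13 in MRL/lpr placebo pools on CL (interaction -5.80, standard error 0.45, adjusted p = 9.2e-05). MRL/lpr T pools alone were high, but on Affy all groups overlapped and the interaction was -0.07. Rai1, a chromatin regulator, was at least 23.6-fold higher with T in MRL/lpr on CL (interaction -5.29), with an interaction of 0.55 on Affy. Atp6v0a2, a subunit of the vacuolar proton pump, was at least 22.7-fold higher with T in MRL/lpr on CL (interaction -4.87), with -0.37 on Affy. Zmpste24, the protease that processes prelamin A, read 16.5, 30.4 and 6.11 in NOD T and 255, 273 and 264 in NOD placebo pools on CL, and between 1588 and 1898 in all NOD pools on Affy.

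These cases were counted with limits chosen after the values were seen. Among the 333 negative genes of CL, 61 rose by over 2.5 with T in MRL/lpr, with a median T effect of 3.73 in MRL/lpr and 1.03 in NOD. Of these, 35 were tested on Affy, where their median T effect was 0.36 in MRL/lpr and 0.00 in NOD, and 6 (Ggt7, Kcnip3, Rgcc, Slc27a2, Svs2 and Svs4) were called negative. A further 42 genes fell by over 2.5 in NOD while changing by less than 0.8 in MRL/lpr, with a median NOD effect of -3.27. Of 19 tested on Affy, 3 (Calml4, Car6 and Hspa2) were called negative there, 10 changed by less than 0.5 in NOD and the median NOD effect was 0.14. The 42 genes correlated with each other over the 12 CL arrays at a median of 0.93 (lowest -0.15). Most of them thus shared a common CL profile and are not separate results. The limits pick genes of like profile, so that this is partly set by that choice. The 61 genes included 13 olfactory and vomeronasal receptors, which made up 401 of the 8959 genes tested on CL. On CL 38 of 401 such receptor genes tested were called (9.48%, beside 8.51% of all genes), and on Affy 0 of 21. The calls on CL were unequal by direction. Of the 401 receptors 33 were negative, beside 3.97% of all genes, and 5 were positive, beside 4.53% of all genes. Olfr1086, one of these receptors, read 281, 199 and 219.6 in NOD T, 5.36, 7.11 and 6.54 in NOD placebo, 628, 798 and 1181 in MRL/lpr T and 5.21, 5.83 and 6.17 in MRL/lpr placebo pools (interaction -2.0, adjusted p = 0.0031).

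Further calls on CL alone were found among growth factors and channels. Tgfa, a ligand of the epidermal growth factor receptor, read 1.13, 1.65 and 1.53 in NOD T, 3.20, 3.57 and 3.91 in NOD placebo, 7.89, 9.05 and 14.7 in MRL/lpr T and 2.21, 2.41 and 2.21 in MRL/lpr placebo pools (interaction -3.49, standard error 0.35, adjusted p = 0.00023). It fell in NOD and rose in MRL/lpr on CL, with an interaction of -0.41 on Affy (adjusted p = 0.75). Fst, follistatin, an activin antagonist, was at least 2.5-fold higher with T in NOD and at least 28.8-fold in MRL/lpr on CL (interaction -2.75, adjusted p = 0.0011), with -0.42 on Affy. Chst2, a sulfotransferase, had an interaction of -2.87 (adjusted p = 0.00047) on CL and 0.02 on Affy, where its values were at or under 119.7. Trpm5, an ion channel used in taste signalling, rose by 5.12 in NOD on the log2 scale and was at least 101-fold higher with T in MRL/lpr on CL (interaction -1.97, adjusted p = 0.010), with T effects of 0.21 in NOD and 0.07 in MRL/lpr on Affy, neither called. With normexp background correction its CL interaction was -0.51 and did not pass. Among positive genes on CL, Mcoln3, a lysosomal cation channel, and Cemip, which degrades hyaluronan, were above background in NOD T pools alone (at least 1.54-fold and 2.62-fold higher with T), and their CL interactions were 2.45 and 2.68, beside -0.40 and -0.11 on Affy. In the growth factor and morphogen list 4 of 63 on CL were negative (Fst, Notch2, Tgfa and Vegfa) and 1 of 92 on Affy (Egf). Tgfbr1 was positive on Affy. Over all genes, 3.97% were negative on CL and 0.98% on Affy. Of 16 cholesterol synthesis genes on CL and 20 on Affy none was called.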

How the data were processed

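Total RNA of 12 pools of lacrimal glands was measured on 12 CL and 12 Affy arrays. The deposited CL intensity is the spot signal after division by its array's median in the scanner software used by the authors, and the deposited Affy intensity is the probe set signal. The methods name Microarray Suite with scaling to 500, but the trimmed means of the deposited Affy intensities lay between 22.1 and 150.0, so each array was scaled here to 500 (2% left out at each end, factors 3.33 to 22.6). Values were floored (0.5 on CL, 70.5 on Affy), log2 transformed and fitted with limma 3.58.1 (lmFit, eBayes with trend, R 4.3.3) as 4 group means. Adjusted p-values (Benjamini-Hochberg) cover all probes tested, 13615 on CL and 17891 on Affy, and genes are represented by the probe with the highest mean signal. Platform annotation gave 1 symbol for 11377 of 17440 CL probes and 20393 of 22690 Affy probe sets, and probes with several or no symbols are not named.

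The members and lists were chosen with earlier results of these data known. In the immune list 52 genes were added and 7 put back after values were seen. Named genes were, per platform, the 6 largest interactions in each direction among members above background whose pools did not overlap in at least 1 strain, up to 2 per direction with a group at background and the smallest adjusted p, up to 12 called on both platforms, up to 3 of each function list, and Mup5, Calml4, Ddc and Olfr1086. Dmbt1, Fbp1, Gdf5, Sel1l3, Smr2 and Vim were described outside this rule and picked after their values were seen. Folds given as at least N-fold set the brighter group's mean against the higher of the dim probe's own signal and the lowest signal above background. Tested on simulated data, the fit recovered 52 of 100 interactions of log2 2 on CL and 39 of 100 on Affy, and 6 and 1 of 100 of log2 1. The simulation shifted these probes in NOD T pools alone, with normal noise and no floor. In the data a larger share of probes was called (1094 on CL and 701 on Affy), so that these rates need not hold there. P-values measure the spread between pools, and the number of arrays limits precision. Alternatives were other background, scaling, floor and filter settings, array weights, the replicate number as a block, and each pool left out. Python 3.11.15 and pandas 2.3.3 were used for tables.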

Additional observations from a re-analysis of the deposited data

Results flagged for a closer look

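Each result here is a difference between the strains in the T effect, tested by the interaction term. There were 189 positive and 333 negative genes on CL, and 155 positive and 100 negative genes on Affy. Among genes called on both platforms, the negative interactions were -3.41 on CL and -3.74 on Affy for Svs2, -3.12 and -3.42 for Svs4, -3.38 and -3.53 for Ggt7, -3.21 and -2.47 for Kcnip3, -4.17 and -3.69 for Calml4 and -2.46 and -2.97 for Hspa2. The positive ones were 2.43 on CL and 3.59 on Affy for Moxd2, 2.56 and 2.92 for Serpina1b, 3.88 and 2.45 for Rgs10, 2.43 and 2.80 for Mmp3, 2.64 and 2.91 for Fam111a and 2.48 and 2.69 for Pla2g7. The CL value of Rgs10 leans on NOD placebo pool 1, which was under the floor. No test for a single outlying value was made within groups of 3 pools.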

How the results depend on the processing

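On CL the positive count of 189 was 92 among probes above background and 646 by an unmoderated t statistic on unlogged values (variance pooled over the 4 groups, unadjusted p under 0.05), and the negative count of 333 was 509 with array weights and 1091 by the unlogged statistic. On Affy the positive count of 155 was 363 with array weights, 94 with scaling to each array's own median and 713 by the unlogged statistic, and the negative count of 100 was 334, 45 and 777 in these settings. With Affy signals as deposited, where the median interaction of all genes was 1.02, 200 positive and 4 negative genes were called (1.96% negative, against 39.2%), and Ddc (0.17) and Etfb (0.25) changed sign. With normexp on CL 268 positive and 310 negative genes were called (53.6% negative, against 63.8%). T effects in NOD on CL (1535) numbered 1007 above background and 2672 by the unlogged statistic, and in MRL/lpr (1173) 705 and 2305. On Affy those in NOD (1085) numbered 2589 with array weights, 2300 by the unlogged statistic and 701 by it after Benjamini-Hochberg adjustment, and those in MRL/lpr (763) 66 as deposited and 2221 by the unlogged statistic. Genes called on both platforms (53) numbered 124 with array weights, 337 by the unlogged statistic and 32 after its adjustment. Leaving out 1 pool at a time gave 119 to 198 positive and 234 to 362 negative genes on CL, 79 to 273 and 46 to 247 on Affy, 33 to 75 on both platforms, and 686 to 1266 T effects in NOD and 404 to 1343 in MRL/lpr on Affy. Without the Affy array of NOD T pool 1 there were 273 positive and 247 negative genes. With the immune list as first written the counts were 219 and 337 on CL and 185 and 98 on Affy. Replicate numbers did not pair the samples (correlations of deviations CL -0.07 to 0.09, Affy -0.07 to 0.11), and with them as a block 162 positive and 296 negative genes were called on CL, 138 and 88 on Affy, and 42 on both platforms. Of the named genes 45 of 63 on CL and 33 of 52 on Affy kept their call with each pool left out. In all the other settings where they were tested, 37 of 63 on CL and 11 of 52 on Affy kept it. On Affy 22 of the 52 lost the call by the unlogged statistic after Benjamini-Hochberg adjustment. Without the filter on dim probes 15 lost it, and with scaling to each array's own median 13 lost it. Between 47.2% and 61.1% of CL spots per array were near background, which limits their values.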

Other observations

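All mice were female, yet 2 of the Y-linked genes on CL had called interactions. Kdm5d averaged 28.1 in NOD T, 148 in NOD placebo, 122 in MRL/lpr T and 142 in MRL/lpr placebo pools (interaction -2.21, limma adjusted p = 0.0019), and Uty averaged 0.316, 0.284, 1.82 and 0.153 in the same groups (interaction -1.85, adjusted p = 0.00039). Usp9y on CL was not called (interaction -0.75, adjusted p = 0.36). On Affy the interaction was 0.40 for Kdm5d and -0.41 for Usp9y (adjusted p = 0.62 for each).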
